A study of Mus musculus with 48 samples.

Results

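The genes described here take up, carry, store, export or sense iron: *Hamp*, *Tfr2*, *Hfe*, *Tfrc*, *Trf*, *Slc11a2*, *Slc40a1*, *Heph*, *Fth1* and *Ftl1*. They were chosen by symbol, and every probe whose accession maps to one of these symbols was taken, which gave 13 of 41174 probes for all 10 genes, among 18434 named genes. *Slc11a2* had 3 probes and *Heph* had 2. For each gene the probe with the highest mean signal stands for the gene, and the others are given beside it.

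The arrays compared liver and whole colon of C57/BL6 mice at 12 weeks of age. Their dams, and the mice themselves after weaning, received a high-fat diet. It was either supplemented with selenium and folate (H) or marginally deficient in both (L). HH offspring had diet H throughout. In LH offspring the dam was fed diet L and the weaned pup diet H. In HL offspring the order was the opposite, and LL offspring had diet L throughout. Liver values come from 5 HH, 6 HL, 6 LH and 6 LL mice, since the labels assign a pair of HH arrays to one animal, and colon values come from 6 mice of each group with other animal numbers. The sources used here do not tie mice to litters, so littermates may be among the replicates. The offspring are described as male.

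Iron enters the plasma through ferroportin (*Slc40a1*), the sole known iron exporter, and travels bound to transferrin (*Trf*), which is made mostly by hepatocytes. Hepcidin (*Hamp*), a peptide hormone of hepatocytes, binds ferroportin and causes its breakdown, and its transcription follows BMP and SMAD signalling together with the sensors transferrin receptor 2 (*Tfr2*) and *Hfe*. Cells take up transferrin through transferrin receptor 1 (*Tfrc*), move iron across membranes through DMT1 (*Slc11a2*) and keep it in ferritin, built of the heavy chain *Fth1* and the light chain *Ftl1*, while hephaestin (*Heph*) oxidises the iron that leaves the intestinal cell.

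The promoter stretches of the hormone and of its sensor are shown because these genes had 2 of the 3 largest differences between the tissues, and that of *Hamp2*, the neighbouring copy of *Hamp*, because of its likeness. They are RefSeq sequences of build GRCm38.p6, read 5′ to 3′ on the strand of the gene, and cover the 130 bases before a listed transcription start. That of *Hamp* is chr7:30944030-30944159 (minus strand), that of *Hamp2* chr7:30924182-30924311 (minus strand) and that of *Tfr2* chr5:137569710-137569839 (plus strand, the first of 3 listed starts). The gene span given for *Tfr2* begins within its stretch. Capitals mark the BMP response element (GGCGCC) and the STAT site (TTCNNNGAA) in *Hamp* and *Hamp2*, and the hypoxia response cores ACGTG and GCGTG in *Tfr2*.
Hamp: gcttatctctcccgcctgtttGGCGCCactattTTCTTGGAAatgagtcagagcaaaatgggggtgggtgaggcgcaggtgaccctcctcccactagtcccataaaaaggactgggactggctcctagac
Hamp2: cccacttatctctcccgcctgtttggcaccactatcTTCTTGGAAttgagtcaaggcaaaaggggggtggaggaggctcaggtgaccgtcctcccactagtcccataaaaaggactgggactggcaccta
Tfr2: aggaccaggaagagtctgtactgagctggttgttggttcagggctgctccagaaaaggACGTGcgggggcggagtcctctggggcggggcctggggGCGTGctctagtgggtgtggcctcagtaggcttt

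Counted from the start, the BMP element of *Hamp* lies at -109 to -104 and its STAT site at -97 to -89. Shifted by 3 bases, 118 of the 130 bases of *Hamp* are the same in *Hamp2*, and the stretch of *Hamp2* holds the STAT site but no GGCGCC. Searched on both strands, GGCGCC was found in 11.9% of all 32851 promoter windows, TTCNNNGAA in 8.3%, ACGTG in 19.6% and GCGTG in 32.4%. The table held windows for 6 of the 10 genes, and GGCGCC was found for 2 of them, *Hamp* and *Tfrc*, TTCNNNGAA for *Hamp* alone, ACGTG for 2 and GCGTG for 4. The loop of the iron responsive element, searched on the transcribed strand only, was found in 10.4% of all windows. Among the 6 genes with windows it was found for *Tfr2* alone, at 32 to 43 from a listed start and -224 to -213 from another. The windows lie around listed starts, and the rest of each transcript was not searched. *Slc40a1*, *Slc11a2*, *Trf* and *Heph* had no window. The search therefore cannot show that the element is absent from the genes without a match. A match of the loop letters alone does not show that *Tfr2* carries the element either. The matches of all these motifs describe letters and were not tested for function. Probe letters were not used here, so that *Hamp2* RNA may contribute to the *Hamp* probe, and transcribed pseudogenes to the ferritin probes.

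The 10 genes lie on different chromosomes except for *Hamp* and *Ftl1*. In GRCm38.p6 *Hamp* spans chr7:30942368-30944029, *Tfr2* chr5:137569822-137588081, *Hfe* chr13:23702034-23710854, *Tfrc* chr16:32608896-32632794 and *Trf* chr9:103208876-103230286. *Slc11a2* spans chr15:100387898-100424209, *Slc40a1* chr1:45908070-45926532, *Heph* chrX:96455436-96574485, *Fth1* chr19:9980600-9985111 and *Ftl1* chr7:45457944-45459886.

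Values are log2 ratios of mouse (Cy3) over a common reference RNA (Cy5) after background correction and loess normalisation within the array. The labels call the reference a multi-organ mouse RNA. A ratio of 0 is its level, and levels are compared only within a probe. A probe was called when a fold change over 1.5 came with a Benjamini-Hochberg FDR under 0.05 in the limma fit over all probes. Of the non-control spots, 55.1 to 66% were well above background in Cy3 on the liver arrays and 66.8 to 73.7% on the colon arrays. No probe of these genes was saturated on any array, and all but one of the 13 probes were well above background on all 48 arrays. The exception was the second *Heph* probe, A_52_P498219, which was well above background on 0 liver arrays and on 22 of 24 colon arrays.

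In the comparison of the tissues, 8 of the 10 genes differed between liver and colon over all diets, 5 with the higher level in liver and 3 in colon. *Slc11a2* is counted there by its brightest probe, and with the mean over the probes of each gene 7 genes were called. Among all probes tested, 30.4% were called, 14.6% as higher in liver and 15.7% as higher in colon. The median difference of the 10 genes was 0.72 on the log2 scale, against 0.01 over all probes. Liver and colon arrays lie on different slides and were scanned on different days, so tissue, slide and scan cannot be told apart. In bulk tissue, fewer cells of a type and less RNA per cell cannot be told apart either.

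The sensors of transferrin iron and the hormone stood high in liver. *Tfr2*, which binds transferrin on hepatocytes, lay between 2.09 and 2.85 in the 23 livers (median 2.56) and between -5.31 and -4.46 in the 24 colons (median -4.93). No liver came near any colon, and the difference was 7.4 ± 0.06 (SE), or 168-fold, with a limma adjusted p of 3.08e-53. By size it ranked 53 among the differences of all probes. *Hamp* lay between 1.79 and 2.51 in liver and between -2.74 and -1.93 in colon, a 23-fold difference (4.52 ± 0.07 SE, limma adjusted p 1.6e-43). *Hfe*, the haemochromatosis protein that competes for transferrin receptor 1, was 1.52 ± 0.22 (SD, n = 23) in liver and -0.29 ± 0.27 (SD, n = 24) in colon. It was 3.51-fold higher in liver (limma adjusted p 5.18e-26), and its lowest liver at 1.15 lay above its highest colon at 0.03.

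The 2 proteins of the transferrin cycle differed in their tissue pattern. *Trf* lay between 0.31 and 1.85 in liver and between -4.84 and -3.43 in colon, a 35.5-fold difference (5.15 ± 0.11 SE, limma adjusted p 4.83e-37). *Tfrc* lay between -1.98 and -1.14 in liver and between -2.38 and -1.06 in colon, so the tissues overlapped. Its difference of 0.22 ± 0.09 (SE) was 1.17-fold and not called (limma adjusted p 0.0204), and it became -0.40 when arrays were centred on the median in place of loess. Both tissues stood below the reference in *Tfrc*.

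The oxidase *Heph* had the opposite direction. It was 17.3-fold higher in colon (-4.11 ± 0.08 SE, limma adjusted p 8.21e-39), with livers between -4.41 and -3.34 and colons between -0.42 and 0.66. Its second probe, dim in every liver, gave only a bound, with colon at least 1.25-fold higher. The exporter *Slc40a1* lay between -0.31 and 0.82 in liver and between -0.07 and 1.15 in colon. Its difference of -0.55 ± 0.08 (SE, limma adjusted p 2.16e-08) was 1.46-fold and thus just under the fold threshold, and it passed that threshold as -0.72 in the Cy3 channel alone, as -0.62 with processed signals and as -1.01 with median centring.

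The ferritin chains went in opposite directions between the tissues. *Ftl1* was 2.33-fold higher in liver (1.22 ± 0.06 SE, limma adjusted p 4.44e-23), and its lowest liver at 0.48 lay above its highest colon at 0.11. *Fth1* was 1.52-fold higher in colon (-0.60 ± 0.10 SE, limma adjusted p 3.97e-07), with overlapping ranges of -1.49 to -0.45 in liver and -0.92 to 0.18 in colon. The *Fth1* difference lies at the threshold, and leaving out any of 10 single mice brought it to between -0.58 and -0.57, under a fold of 1.5.

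**Figure D1:**
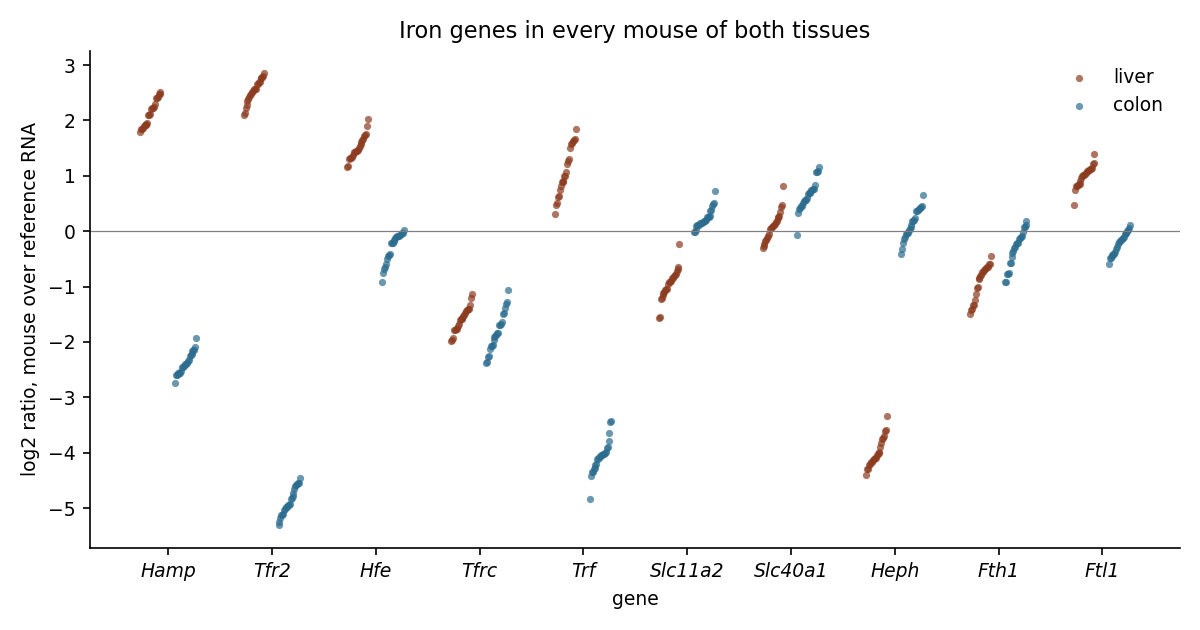
Log2 ratio of mouse over reference RNA (y axis) of the 10 iron genes (x axis), 1 point per mouse, ordered by value within each tissue, with 23 livers and 24 colons per gene. *Tfr2*, *Trf*, *Hamp*, *Hfe* and *Ftl1* have every liver above every colon, *Heph* and the brightest *Slc11a2* probe have every colon above every liver, and *Tfrc* overlaps.

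The 3 probes of *Slc11a2* disagreed between the tissues. The brightest, A_51_P388737, was 2.28-fold higher in colon (-1.19 ± 0.07 SE, limma adjusted p 5.09e-20), with livers from -1.57 to -0.23 and colons from -0.02 to 0.72. A_52_P196476, whose accession is another transcript of the gene, was 1.75-fold higher in liver (0.81 ± 0.10 SE, limma adjusted p 2.77e-10), and A_52_P254298 was 1.54-fold higher in liver (0.63 ± 0.05 SE, limma adjusted p 6.35e-16). Averaged over the 3 probes, the difference was 0.08 and not called. With median centring the difference of A_52_P196476 was 0.18 and that of A_52_P254298 0.25, neither called. A single direction for *Slc11a2* is therefore not given.

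Genes that share these pathways were read against the 30.4% of all probes called between the tissues. Of 21 measured regulators of hepcidin (22 were listed), 5 were called higher in liver and 7 higher in colon. Examples are *Tmprss6*, the hepatocyte protease that restrains hepcidin (5.78 ± 0.08 SE), *Hjv*, the BMP co-receptor of hepatocytes (3.31 ± 0.08 SE), and the signal carrier *Smad1* (-1.35 ± 0.07 SE), with *Tmprss6* and *Hjv* chosen after their values were seen. Of 12 genes of heme handling, 8 were called higher in liver and 1 higher in colon, among them the haemoglobin scavenger *Hp* (6.16 ± 0.08 SE). Of 14 genes of mitochondrial iron use, 9 were higher in liver and 1 in colon, of 13 other transport genes 4 and 3, and of 6 genes of iron sensing and ferritin loading 2 and 0, a share near that of all probes. The defining markers were checked against the labelled tissues: all 6 hepatocyte markers were called higher in liver, and all 7 epithelial and all 4 smooth muscle markers were called higher in colon. Every hepatocyte and smooth muscle marker and 6 of the 7 epithelial markers were well above background on all arrays of both tissues, so a signal well above background is not by itself a sign of the cell type. Adipocyte markers were higher in colon (median -3.83 over 3 genes).

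The diet comparisons asked whether a diet low in selenium and folate, fed to the dam or to the weaned offspring, changed these genes. No iron gene was called in any of the 8 diet comparisons of either tissue, and of all probes 0% were called in each of them. The paper does report liver probes past the same thresholds for HH *vs.* LH, HH *vs.* HL, HH *vs.* LL and LH *vs.* LL. The reason for this difference was not tested. At an unadjusted p under 0.05 the count was 1 of 10 genes, *Tfr2*, in 6 of the liver comparisons. It was 0 in the other 2 liver comparisons and in all 8 of the colon.

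Liver was read against the share of all probes with such a p, which was 12% for HH *vs.* LH, 4.37% for HH *vs.* HL, 3.45% for HH *vs.* LL and 6.38% for LH *vs.* LL. It was 4.16% for the dam diet (mean of LH and LL against that of HH and HL) and 11.4% for the interaction of both diets. The comparisons without an iron gene had 3.08% for HL *vs.* LL and 1.37% for the offspring diet (mean of HL and LL against that of HH and LH). One gene is the smallest count above 0 that 10 genes can give, so these counts are no result about the list. The median change of the 10 genes in HH *vs.* LH liver was -0.03, against -0.01 over all probes.

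*Tfr2* had the lowest p of the 10 genes. In liver it was 2.09, 2.13, 2.22, 2.35 and 2.53 in the 5 HH mice. The 6 LH mice lay between 2.57 and 2.85 with a median of 2.77. All LH mice thus lay above all HH mice, a separation found in 1.54% of all probes in one or the other direction. The HL mice lay between 2.27 and 2.69 (median 2.55) and the LL mice between 2.39 and 2.76 (median 2.51), and both groups overlapped HH and LH.

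LH was 0.47 ± 0.09 (SE) above HH in *Tfr2*, or 1.39-fold, with a 95% confidence interval of 0.29 to 0.66. The unadjusted limma p of 2.73e-05 was the 7th lowest of 41171 probes, but the adjusted p was 0.12 and the fold stayed under 1.5. HL was 0.27 ± 0.09 (SE) above HH (limma p 0.00745, adjusted 0.952) and LL was 0.29 ± 0.09 (SE) above HH (limma p 0.00451, adjusted 1). LL was 0.19 below LH (limma p 0.0393, adjusted 0.768). The dam diet gave 0.25 ± 0.06 (SE, limma p 0.000659, adjusted 0.999) and the interaction -0.45 ± 0.12 (SE, limma p 0.00141, adjusted 0.29). These comparisons share their mice, and the HH mice enter most of them.

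Each slide carried 1 array of each diet group, which allows the difference to be read within a slide. On the 6 liver slides *Tfr2* was higher in LH than in HH by 0.44, 0.04, 0.66, 0.54, 0.56 and 0.74, where the slides with 0.66 and 0.74 carry the same HH animal. With slide as a block and 1 array of that animal the difference was 0.45 ± 0.10 (SE, limma p 0.000218, adjusted 0.124). Leaving out each mouse in turn gave 0.43 to 0.54 (limma adjusted p 0.0574 to 0.379), and over all alternatives the adjusted p lay between 0.0327 and 0.379. It was under 0.05 where the 2 arrays of one HH animal were counted as 2 mice (0.50, limma adjusted p 0.0327), a setting that counts that animal more than once.

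Markers of several cell types were set beside *Tfr2* in the same livers, and none was called. The mean log2 ratio of 6 hepatocyte markers lay between 1.36 and 1.81 in HH livers and between 1.56 and 2.09 in LH livers. LH was above HH in all 6, with a median difference of 0.22, and 1 had an unadjusted limma p under 0.05 (*Cyp2e1*, 0.83 ± 0.29 SE, p 0.00904). Of 4 markers of dividing cells 3 had such a p, all with lower values in LH (list level -2.41 to -1.75 in HH and -2.78 to -2.24 in LH). Of 4 lymphocyte markers 2 did (0.1 to 0.42 in HH and -0.23 to 0.23 in LH), and of 5 erythroid markers 1 did (0.14 to 0.46 in HH and 0.01 to 0.23 in LH), again with lower values in LH. Further lists were those of Kupffer cells and macrophages, with 1 of 8 lower (1.02 to 2.5 in HH and 1.06 to 2.18 in LH), and of the acute phase, with 1 of 6 higher and 2 lower (0.62 to 1.82 in HH and 0.76 to 0.91 in LH). The 3 adipocyte markers lay between -2.31 and -0.25 in HH and between -2.39 and 2.33 in LH. One LH liver, replicate 4, stood at 2.33 in them, and without it *Tfr2* was 0.47 above HH (limma adjusted p 0.184). In the adipocyte, endothelial, smooth muscle and colon epithelial lists 0 genes had an unadjusted limma p under 0.05. The erythroid marker *Epb42* was well above background on 0 arrays. Their part in the *Tfr2* difference was not tested. Over the 23 livers, the genes most like *Tfr2* were *Slc10a1*, the bile acid importer of hepatocytes, *Pgm1*, an enzyme of glycogen metabolism, and *Ugt1a1*, which conjugates bilirubin, with Pearson's r of 0.88, 0.87 and 0.85 among 12354 genes. These were looked up after the *Tfr2* values had been seen, and r within the diet groups was 0.74, 0.79 and 0.75. Mice of a slide share hybridisation.

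In colon *Tfr2* lay at -4.98 (HH), -4.97 (HL), -4.73 (LH) and -4.93 (LL) in the median, with ranges that overlapped throughout. LH was 0.12 ± 0.14 (SE) above HH (limma p 0.379, adjusted 1). The difference between the liver and the colon effect of LH against HH was 0.35 ± 0.17 (SE, limma p 0.0474, adjusted 0.659), so the effects were not shown to differ between the tissues.

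**Figure D2:**
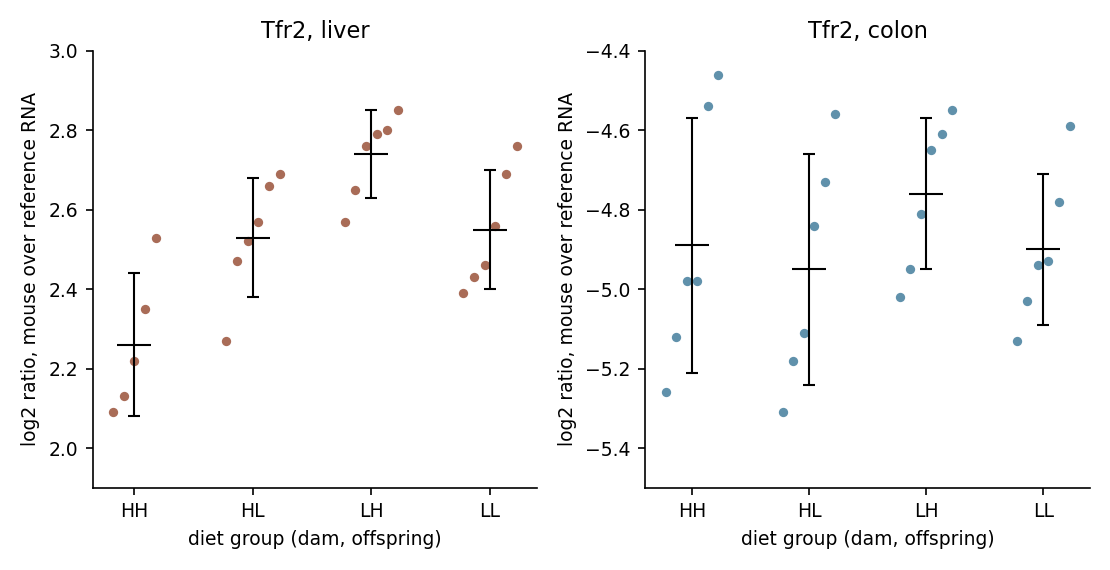
Log2 ratio of *Tfr2* (y axis, a separate scale for each tissue) in the 4 diet groups (x axis, dam diet first) in liver and colon. Points are mice and bars are the mean and SD. The 5 HH livers lie at or below 2.53 and the 6 LH livers at or above 2.57, and the colon groups overlap.

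*Hamp*, the hormone that *Tfr2* helps to regulate, had nearly the same level in every diet group of the liver. The HH mice lay between 1.87 and 2.51, the HL mice between 1.9 and 2.48, the LH mice between 1.79 and 2.47 and the LL mice between 1.84 and 2.43. The group means were 2.18 ± 0.29 (SD, n = 5), 2.12 ± 0.23, 2.16 ± 0.27 and 2.10 ± 0.24 (SD, n = 6 each). LH minus HH was -0.02 with a 95% confidence interval of -0.33 to 0.28 (limma p 0.866, adjusted 0.967), so that the interval leaves out a 1.5-fold change (0.58 on the log2 scale) in either direction. The dam diet gave -0.02 (-0.23 to 0.19) and the offspring diet -0.06 (-0.27 to 0.15). In colon all 8 comparisons of *Hamp* had an unadjusted p of 0.41 or more.

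*Hfe* was 1.58 ± 0.21 (SD, n = 5) in HH livers and 1.44 ± 0.22 (SD, n = 6) in LH livers, a difference of -0.14 with an interval of -0.41 to 0.13. Its HL and LL livers lay at 1.57 and 1.48 in the mean, and none of the groups stood apart. *Tfrc* was -1.65 ± 0.23 (SD, n = 5) in HH livers and -1.53 ± 0.27 (SD, n = 6) in LH livers (0.12, interval -0.15 to 0.39), and its LL livers were the most alike, between -1.79 and -1.57.

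*Trf* varied more from mouse to mouse than most probes. Its SD within the liver groups was 0.45, above that of 96.4% of all probes, and its HH values were 0.48, 0.74, 0.82, 1.07 and 1.59. The 6 LH mice lay between 0.64 and 1.85 with a median of 1.43. LH was 0.37 above HH with an interval of -0.15 to 0.90 (limma p 0.155, adjusted 0.581), an interval that holds both no difference and a 1.5-fold one.

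*Slc40a1* was -0.23, 0.10, 0.25, 0.27 and 0.82 in the HH livers and between -0.27 and 0.19 in the LH livers. LH minus HH was -0.29 ± 0.15 (SE, limma p 0.0688, adjusted 0.458), and it was -0.15 (limma p 0.304) without the HH mouse at 0.82, which is the one with 2 arrays. In colon the same comparison gave 0.23 ± 0.15 (SE, limma p 0.138, adjusted 1). The difference between the tissues in this effect was -0.52 ± 0.22 (SE, limma p 0.0224, adjusted 0.618).

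**Figure D3:**
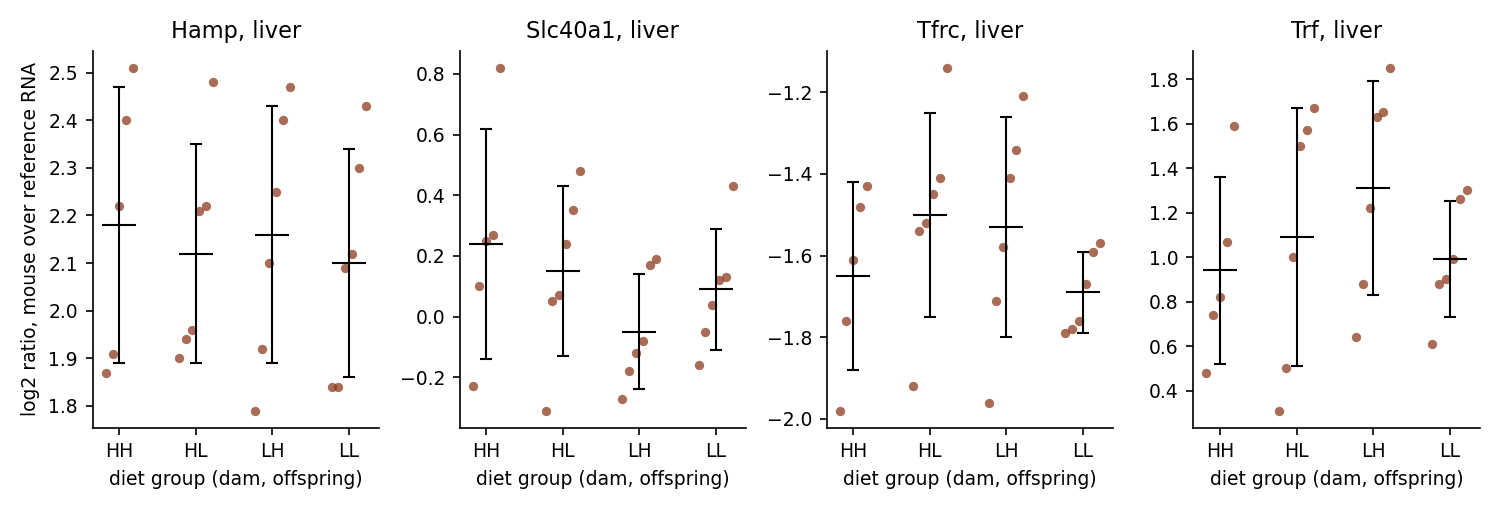
Log2 ratio of *Hamp*, *Slc40a1*, *Tfrc* and *Trf* in liver (y axes, a separate scale for each gene) by diet group (x axis, dam diet first), with points for mice and bars for the mean and SD. The *Hamp* means lie between 2.10 and 2.18, and in all 4 genes the groups overlap.

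The ferritin chains, the oxidase and DMT1 had intervals that include 0 in liver. *Fth1* LH minus HH in liver was 0.17 with an interval of -0.22 to 0.56, and *Ftl1* was -0.03 with an interval of -0.27 to 0.21. *Heph* in liver was -0.12 (-0.45 to 0.21). *Slc11a2* in liver was -0.19 (-0.53 to 0.15) by its brightest probe. The intervals of these 4 genes leave out a 1.5-fold change.

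In colon, the shares of all probes with an unadjusted p under 0.05 were 3.24% for HH *vs.* LH, 1.46% for HH *vs.* HL, 1.72% for HH *vs.* LL, 1.02% for HL *vs.* LL and 2.81% for LH *vs.* LL. They were 2.11% for the dam diet, 2.03% for the offspring diet and 1.79% for the interaction. None of the 10 genes reached such a p by its brightest probe. The widest change among the genes was the 0.23 of *Slc40a1* in HH *vs.* LH. The duodenum, where most dietary iron is absorbed, was not analysed here.

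One further probe of *Slc11a2* did reach it in colon. A_52_P196476 lay between -1.61 and -0.35 in the HH colons (median -1.03) and between -0.76 and 0.10 in the LH colons (median -0.37), and the HL (-1.41 to -0.3) and LL (-1.19 to -0.36) colons overlapped both. LH was 0.68 ± 0.22 (SE) above HH, or 1.60-fold (limma p 0.00508, adjusted 1), and the dam diet gave 0.38 ± 0.16 (SE, limma p 0.0222, adjusted 1). It was higher in LH on 5 of the 6 colon slides, with a range of -0.03 to 1.61. The other probes gave 0.02 ± 0.11 (SE, limma p 0.873) and 0.07 ± 0.08 (SE, limma p 0.367), and the SD of A_52_P196476 within groups, 0.41, was above that of 97.8% of all probes. In the same colons 2 of 4 markers of dividing cells had an unadjusted limma p under 0.05 with lower values in LH, *Ccnb1* (-0.30 ± 0.12 SE, p 0.0201) and *Cdk1* (-0.34 ± 0.16 SE, p 0.0426), and the list lay between -0.54 and -0.09 in HH and between -0.84 and -0.4 in LH. Of 8 macrophage markers 1 was higher with such a p (*Adgre1*, 0.35 ± 0.11 SE, limma p 0.00373), with a list level of -1.27 to -0.96 in HH and -1.14 to -0.85 in LH. The adipocyte markers lay between 1.95 and 3.25 in HH and between -1.17 and 3.03 in LH, and without the LH colon at -1.17, replicate 2, A_52_P196476 was 0.59 above HH (limma p 0.0167, adjusted 1). The part of these markers in the difference was not tested.

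**Figure D4:**
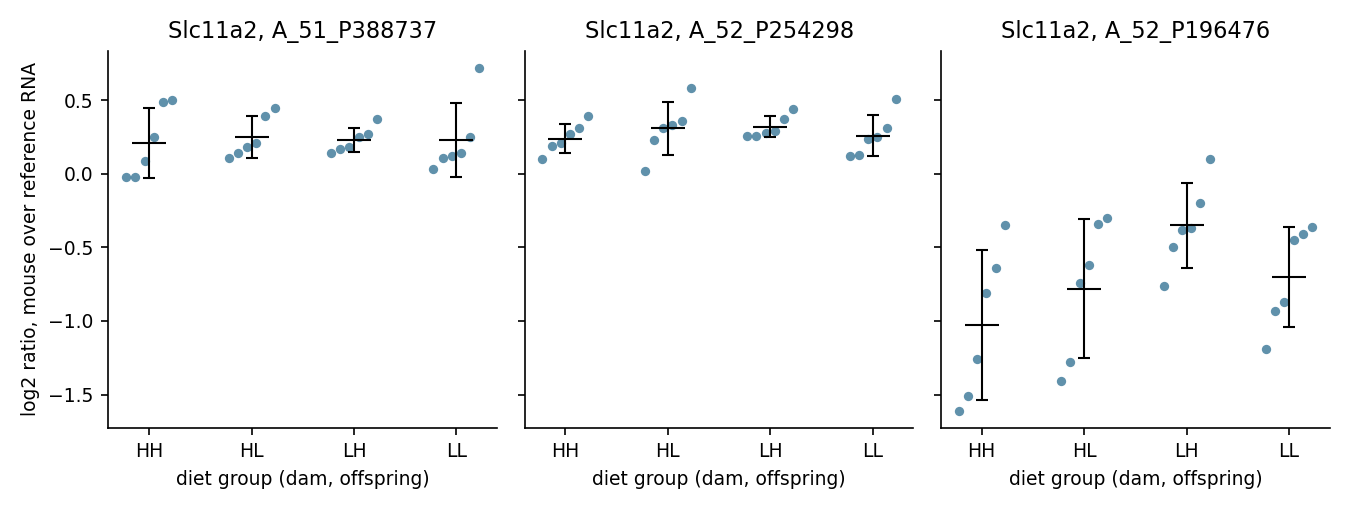
Log2 ratio (y axis, shared) of the 3 *Slc11a2* probes in colon by diet group (x axis, dam diet first), with points for mice and bars for the mean and SD. A_51_P388737 ranges from -0.02 to 0.72, A_52_P254298 from 0.02 to 0.58 and A_52_P196476 from -1.61 to 0.10.

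**Figure D5:**
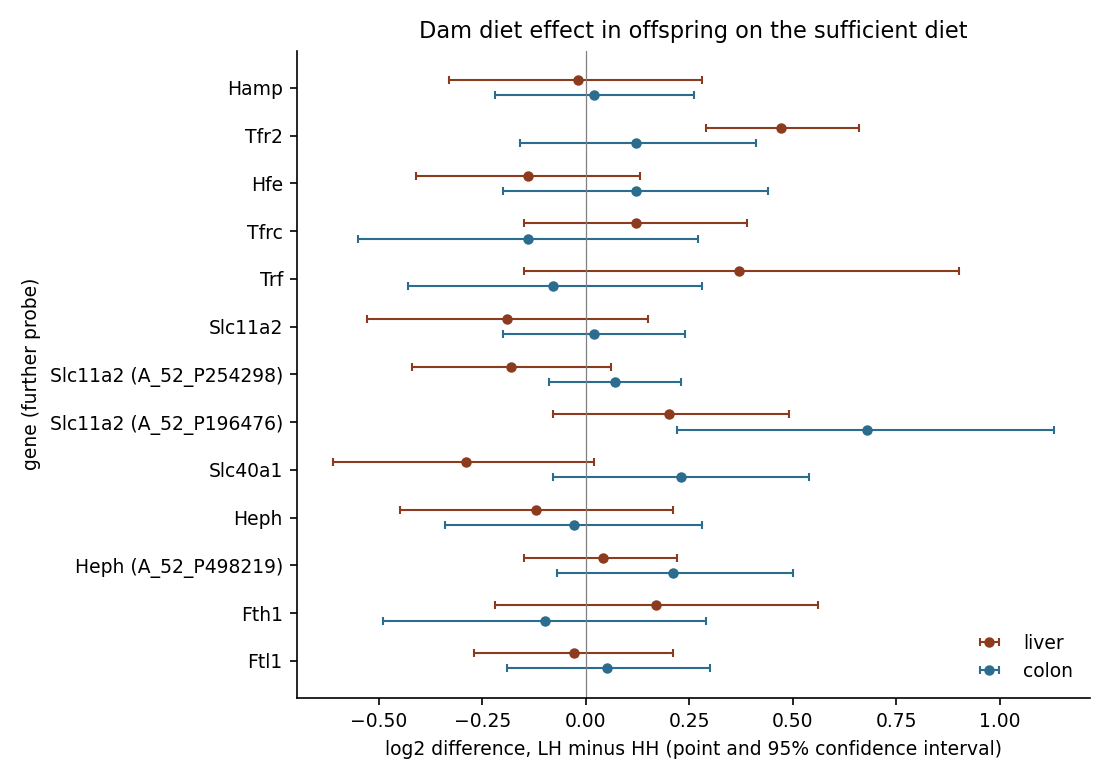
Difference LH minus HH on the log2 scale (x axis) with its 95% confidence interval for the 13 probes of the iron genes (y axis) in liver and colon. The intervals of *Tfr2* in liver (0.29 to 0.66) and of A_52_P196476 in colon (0.22 to 1.13) leave out 0, and all others include it.

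The wider iron pathways were read in the same way, as counts beside the 12% of all probes in HH *vs.* LH liver and the 3.24% in colon. None of their genes was called. Of the 21 hepcidin regulators, 2 had an unadjusted limma p under 0.05 in liver, both with higher levels in LH, the interleukin 6 receptor *Il6ra* (0.67 ± 0.20 SE, p 0.00297) and the BMP receptor *Acvr1* (0.42 ± 0.18 SE, p 0.029). The lowest p for the dam diet among them were those of *Smad1* (0.21 ± 0.11 SE), *Smad5* (-0.12 ± 0.06 SE) and *Bmpr1a* (-0.15 ± 0.09 SE), all above 0.05 in limma. Of the 6 genes of iron sensing and ferritin loading, 3 had such a p in LH livers, all higher: *Aco1*, the iron regulatory protein that is also an aconitase (0.33 ± 0.11 SE, p 0.00541 in limma), and the iron chaperones *Pcbp1* (0.36 ± 0.13 SE) and *Pcbp2* (0.26 ± 0.10 SE). The limma adjusted p of these 3 lay between 0.256 and 0.291.

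Of the 14 genes of mitochondrial iron use, 3 had such a p in LH livers and all were lower, among them *Isca2*, of iron and sulfur cluster assembly (-0.35 ± 0.08 SE, limma p 0.000328, adjusted 0.189), and the cochaperone *Hscb* (-0.39 ± 0.13 SE). Of 12 genes of heme handling, 3 did: the heme oxygenase *Hmox1* was lower (-0.52 ± 0.19 SE) and *Hmox2* higher (0.20 ± 0.08 SE), and the heme exporter *Flvcr1* was lower (-0.30 ± 0.14 SE). Of 13 other transport genes, 1 did, the ferrireductase *Steap4* (0.57 ± 0.26 SE, higher). In colon the counts were 1 hepcidin regulator (*Smad4*, 0.14 ± 0.06 SE), 1 gene of heme handling (*Cd163*, 0.39 ± 0.17 SE) and 0 in the other 3 lists. For the dam diet *Isca2* gave -0.16 ± 0.06 (SE, limma p 0.0107, adjusted 0.999). For the interaction in liver, beside 11.4% of all probes, such a p was reached by 3 hepcidin regulators, 3 genes of iron sensing, 5 of mitochondrial iron use, 3 of heme handling and 2 of other transport. *Il6ra*, *Acvr1*, *Pcbp1*, *Pcbp2* and *Steap4* are named because of their values.

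Of the remaining genes that the rule named, *Scara5*, *Mcoln1* and *Lcn2* in liver transport, *Bola3* in mitochondria, *Blvra* and *Hp* in heme handling and *Fbxl5* and *Ireb2* in iron sensing had dam diet differences between -0.38 and 0.14 with a limma p above 0.05. In colon, *Cp*, *Ltf*, *Steap1*, *Abcb8*, *Isca1*, *Isca2*, *Flvcr1*, *Hmox1*, *Acvr2a*, *Socs3*, *Aco1*, *Ireb2* and *Pcbp1* lay between -0.12 and 0.13.

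The pattern of *Hamp*, *Tfrc* and *Slc40a1* over the 23 livers was set beside that of 12354 other genes well above background on all liver arrays. Among the closest to *Hamp* were *Azgp1* (Pearson's r 0.84) and *Paxip1* (0.84). Closest to *Tfrc* were *Acan* (0.83), the erythroid transcription factor *Klf1* (0.74) and *Phf14* (0.68), and closest to *Slc40a1* were *Arhgap17* (0.80), *Rab32* (0.78) and the histidine-degrading enzyme *Hal* (0.77). Within diet groups *Azgp1* gave 0.85, *Acan* 0.84 and *Arhgap17* 0.77. These are the highest of many values and carry no test.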

How the data were processed

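Liver and colon RNA on 48 2-colour Agilent arrays (Cy3 mouse, Cy5 common reference, no dye swap) was analysed. The authors deposited spot and background median intensities and scanner-processed intensities per array, and log2 ratios of reference over mouse, which matched loess without background correction (r of 1.00 on every array). Their notes name limma and R 3.0.2. The paper and the series text describe the reference RNA differently. Here R 4.3.3 with limma 3.58.1 was used. A local background brighter than its spot (at most 12 spots per array in Cy3, 638 in Cy5) was set to the array median. Normexp (offset 50) and loess followed, without controls and outlier-flagged spots, and spots of a probe were averaged. Names came from RefSeq (GRCm38.p6), matching 27050 probes. Arrays of one HH animal were averaged. Each tissue was fitted as 4 groups with lmFit and eBayes, and the tissues with 8 groups. Adjusted p-values are Benjamini-Hochberg over all probes. Tested on data simulated for HH *vs.* LH liver with 40834 probes, changes of 1 on the log2 scale were called in 92% of 100 probes and changes of 0.5 in 9%. A change of 0.5 lies under the fold threshold of 0.58, and 52% of those probes passed the FDR threshold alone. Noise was drawn independently for each probe, so the rates may differ for the real data.

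The members, lists and tests were chosen with earlier results of these data known. The naming rule took every member, from each list the 3 genes with the lowest p for the dam diet in each tissue unless 3 were called, and 3 similar genes for *Hamp*, *Tfrc* and *Slc40a1*. Alternatives covered background, normalisation, channel, the deposited table, the 2 HH arrays, slide, groups, weights, thresholds, probes, mice with *Xist* and each mouse. P-values measure the spread between mice and treat each mouse as independent, and the number of mice limits the precision. The dam diet was given to dams, so littermates among the replicates could make the p-values that involve it too small. Some genes that the rule or the lists name are not reported here.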

Additional observations from a re-analysis of the deposited data

Results flagged for a closer look

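Of 80 groups of mice (10 genes in 8 groups of 5 or 6), 2 held a value that stood far from the rest by Dixon's 95% limit, both in the brightest *Slc11a2* probe. Chance marks about 1 in 20 groups. LH liver replicate 5 was at -1.55, with the next mouse at -1.10. LL colon replicate 6 was at 0.72, with the next mouse at 0.25. No difference of a diet effect between liver and colon passed the FDR threshold for the 10 genes.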

How the results depend on the processing

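Counts were recomputed under 18 settings and with each of 47 mice left out. No setting with the fold and FDR threshold called an iron gene in a diet comparison. With the FDR threshold alone the counts of the main fit were also 0. Where the 2 arrays of one HH animal counted as 2 mice, *Tfr2* in HH *vs.* LH liver passed that FDR (limma adjusted p 0.0327) below the fold threshold. At an unadjusted p under 0.05, 1 gene (*Tfr2*) was counted in liver for HH *vs.* LH, HH *vs.* HL, HH *vs.* LL, LH *vs.* LL, the dam diet and the interaction. *Tfr2* kept its direction in HH *vs.* LH liver under all 39 alternatives (0.42 to 0.59), each with an unadjusted limma p of 0.000476 or less. Many of these, such as leaving out an HL or LL mouse, do not alter the HH and LH values and so could not move the difference. The 39 are therefore not separate checks. Between liver and colon 7 to 10 genes were called, against 8. Of the 13 probes 2 changed direction there, *Tfrc* to -0.40 with median centring in place of loess and *Slc11a2* to 0.08 as the mean over its probes, and the cause was not tested. With slide as a replicate block no iron gene was called in any diet comparison of either tissue. At an unadjusted limma p under 0.05 that block gave 2 genes for HH *vs.* LH liver (*Tfr2* and *Fth1*, the latter 0.18, p 0.0486), 2 for the interaction (*Tfr2* and *Slc11a2*, the latter 0.44, p 0.0307), 1 for HL *vs.* LL (*Ftl1*, 0.17, p 0.0498) and 0 for LH *vs.* LL. It gave 0 in all 8 colon comparisons. Over all probes, those with such a p in HH *vs.* LH went from 4934 to 5820 in liver and from 1336 to 3326 in colon. The deviations of arrays sharing a slide correlated by 0.17 in the median in liver (-0.32 to 0.67) and 0.36 in colon (0.09 to 0.72). Pairs on other slides gave -0.03 in liver (-0.62 to 0.47) and -0.13 in colon (-0.57 to 0.57). Arrays of a slide were thus more alike in the median, most in colon, and the main fit does not account for slide. Scan date was not run as a block, since each tissue was scanned on 1 date. *Xist* was high on 8 arrays although the offspring are described as male. The log2 Cy3 signal of Y-linked *Eif2s3y* was 6.02 to 7.21 on 4 of these arrays and 10.09 to 11.16 on the other 4. Without the 8 arrays *Tfr2* in HH *vs.* LH liver was 0.47 (limma adjusted p 0.173). None of the 8 is an HH or LH liver, so this setting could change the p-value of that comparison but not its difference. The 8 are liver HL replicate 2 and LL replicate 6, and colon HH replicates 1 and 5, HL replicate 5 and LL replicates 1, 3 and 5. Comparisons that use those groups could move. They include *Tfr2* in HL and LL livers and A_52_P196476 in HH *vs.* LH colon, whose values without these arrays are not given here.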
